A study of Drosophila melanogaster with 2 samples.

Results

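The 10 genes described here are the actin genes Act5C, Act42A, Act57B, Act79B, Act87E and Act88F, the alpha-tubulin genes alphaTub84B and alphaTub84D and the beta-tubulin genes betaTub56D and betaTub60D of Drosophila melanogaster. They were taken by symbol from the Ensembl annotation and make up 10 of 13945 protein-coding genes on the main chromosome arms. From general knowledge, Act5C, Act42A, alphaTub84B, alphaTub84D and betaTub56D are broadly expressed, and Act57B, Act79B, Act87E, Act88F and betaTub60D are tissue-restricted. No RNA was measured in these samples, so that division was not checked here. The study mapped the DNA bound by the protein NC2beta. The embryos were whole, of both sexes, 0 to 24 h old, and came from a stable transgenic line in which GFP is joined to the C-terminus of NC2beta; chromatin was sheared by sonication to 200 to 800 bp and precipitated with an antibody against GFP (chromatin immunoprecipitation with sequencing, ChIP-seq). There was 1 group of 2 biological replicates, numbered 1 and 3, with no second genotype or treatment. The labels name neither the promoter that drives the transgene nor its place of insertion. Because whole embryos of all stages were pooled, binding in fewer cells and less binding in each cell cannot be told apart.

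NC2 is a dimer of an alpha and a beta subunit that fold together like histones and clasp the TATA-binding protein on DNA. Bound there, it keeps the general factor TFIIB away from TATA promoters and lowers their transcription, while in flies it is also known to raise transcription from promoters with a downstream promoter element (DPE). Actin and tubulin are the building blocks of filaments and microtubules: every cell uses the cytoplasmic actins and the general tubulins, while muscle makes its own actins for the sarcomere.

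The paralogs are alike in their coding sequence, while the identity of their promoters was not measured. Over the 15 actin pairs, coding identity ran from 84.0% to 91.8% and protein identity from 95.2% to 99.5% over 376 residues. The products of alphaTub84B and alphaTub84D differ at 2 of 450 residues, and those of betaTub56D and betaTub60D are 85.1% identical. Reads from near-identical copies can be lost or shared, so the share of 50-base words found once in the genome was counted. All words in windows of 250 bp on either side of the 13 transcription start sites (TSSs) of these genes were unique (100%), against 93.9% to 100% in their coding exons, with alphaTub84B and alphaTub84D at 93.9% each.

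The promoters of the actin and tubulin genes are shown from 50 bases upstream of the TSS to 29 bases downstream in the Release 6 genome (dm6), so that the elements described below can be seen beside the heights. Capitals mark the TATA box, the initiator or Motif 1. Those of Act42A, Act57B, betaTub56D and betaTub60D are described without letters.
Act5C, distal TSS, chrX:5900811-5900890 (+ strand): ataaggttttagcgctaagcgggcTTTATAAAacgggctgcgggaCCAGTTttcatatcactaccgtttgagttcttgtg
Act5C, proximal TSS, chrX:5901932-5902011 (+ strand): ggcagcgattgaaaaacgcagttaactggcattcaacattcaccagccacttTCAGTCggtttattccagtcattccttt
alphaTub84B, chr3R:7086549-7086628 (+ strand): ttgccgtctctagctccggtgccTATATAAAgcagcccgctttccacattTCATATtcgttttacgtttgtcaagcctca
alphaTub84D, chr3R:7530703-7530782 (+ strand): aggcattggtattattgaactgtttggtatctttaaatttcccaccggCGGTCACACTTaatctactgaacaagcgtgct
Act79B, chr3L:21985160-21985239 (+ strand): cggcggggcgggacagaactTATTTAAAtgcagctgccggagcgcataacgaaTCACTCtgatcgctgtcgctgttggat
Act87E, upstream TSS, chr3R:13425933-13426012 (+ strand): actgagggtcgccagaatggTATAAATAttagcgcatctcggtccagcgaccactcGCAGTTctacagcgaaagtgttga
Act88F, chr3R:15439919-15439998 (+ strand): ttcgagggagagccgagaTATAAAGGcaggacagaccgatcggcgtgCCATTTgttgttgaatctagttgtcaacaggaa

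An optimal peak, one of the authors' 3897 reproducible peaks, had its summit within 250 bp of a TSS in 3 of the 10 genes, against 17.6% of all protein-coding genes. Such a TSS is called bound here, which means only that a peak was present. The 3 were Act5C, alphaTub84B and betaTub56D, so 3 of 5 broadly expressed genes and 0 of 5 tissue-restricted genes had a bound TSS. With 5 genes in each class and 1 group of samples no test was made, and genes are not replicates. The count was also 3 of 10 with the summit within 100 bp (10.5% of all genes) or 500 bp (20.7%), and 2 of 10 with the upper 50% of optimal peaks by height (9.01%), where Act5C dropped out. The heights are the authors' signal values, and the unit of those values is not stated in the labels or the files. To set the replicates side by side, each height was divided by the median height of that replicate's regions at the optimal peaks, which was 70.6 in replicate 1 and 47.1 in replicate 3. A relative height of 1 is thus that of a middling optimal peak.

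alphaTub84B, the main alpha-tubulin gene (FBgn0003884, chr3R:7086599-7088839, + strand), had the highest region at a TSS of any of the 10 genes. Its pooled height was 230.2, rank 498 of 30000 regions, and 84.9% of the 2450 genes with a bound TSS were lower. The height was 140.1 in replicate 1 and 87.8 in replicate 3. Relative to other peaks these were 1.99 and 1.86, or 1.92 ± 0.0862 (mean ± SD, n = 2), so the replicates lay close together. The summit was 25 bp downstream of the TSS, in the 5′ UTR.

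betaTub56D, the general beta-tubulin gene (FBgn0284243, chr2R:19447319-19451600, − strand), came next at its upstream TSS. The pooled height was 154.5, rank 1095, with 94.4 in replicate 1 and 58.9 in replicate 3. The relative heights were 1.34 and 1.25 (1.29 ± 0.0621, n = 2), above the median optimal peak in each replicate. The summit lay 6 bp downstream of the TSS. At the second annotated TSS, inside the gene, the region was lower and below the optimal set, with a pooled height of 58.5, 40.6 in replicate 1 and 14.8 in replicate 3.

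Act5C, a cytoplasmic actin gene (FBgn0000042, chrX:5900861-5905399, + strand), has 2 annotated TSSs with the same coding exon. The proximal TSS, which starts 1 of its 5 transcripts, had a pooled height of 111.3, rank 1981, with 67.7 in replicate 1 and 42.2 in replicate 3. The relative heights were 0.960 and 0.896 (0.928 ± 0.0454, n = 2), and 47.8% of genes with a bound TSS were lower. The summit lay 37 bp downstream. At the distal TSS, which starts the other 4 transcripts, the pooled list and replicate 1 held no region within 250 bp, and replicate 3 held a region of 19.6. The bound TSS of Act5C was therefore the inner one.

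The other 2 broadly expressed genes had a region at the TSS that fell short of the optimal set, whose lowest height was 74.1. Act42A, the second cytoplasmic actin gene (FBgn0000043, chr2R:6013910-6015689, − strand), had a pooled height of 63.6, rank 4896. Its replicates parted: the height was 49.7 in replicate 1 and 11.2 in replicate 3. In relative terms these were 0.705 and 0.238 (0.471 ± 0.330, n = 2). The −log10 of the deposited q value was 4.11 in replicate 1, its ceiling, and 0.170 in replicate 3. With replicate 1 alone, where as many of the highest regions were taken as there are optimal peaks, Act42A counted as bound and the broadly expressed genes reached 4 of 5, against 17.9% of all genes. With replicate 3 alone it did not, at 3 of 5, against 16.4% of all genes.

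alphaTub84D, the second general alpha-tubulin gene (FBgn0003885, chr3R:7530753-7532732, + strand), had a pooled height of 53.2, rank 6314, with 23.0 in replicate 1 and 14.1 in replicate 3. The relative heights of 0.326 and 0.299 (0.313 ± 0.0190, n = 2) were both below those of alphaTub84B, whose lower replicate stood at 1.86. The difference between these genes, whose proteins differ at 2 residues, was larger than the spread between replicates.

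**Figure D1:**
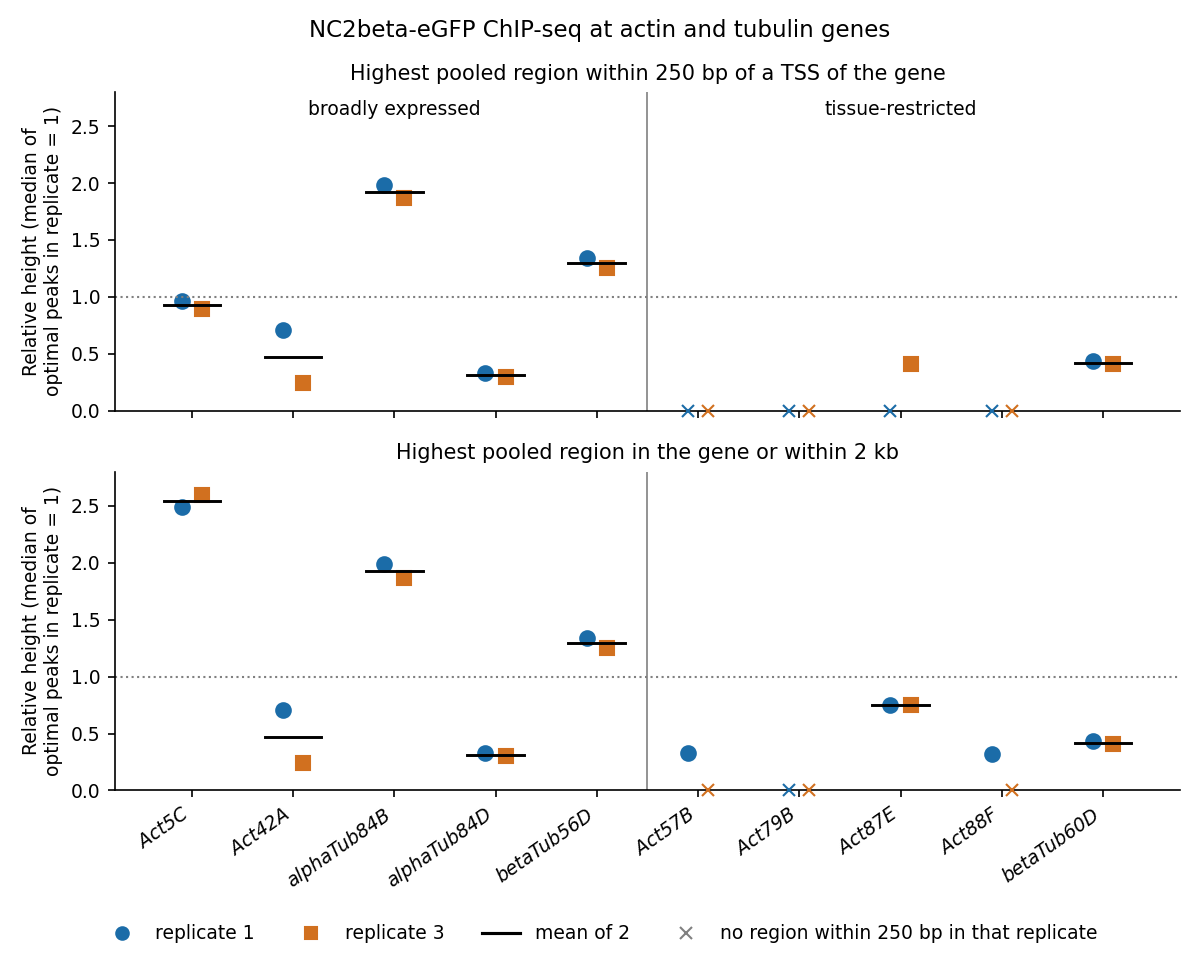
Relative height (region height divided by the replicate's median over optimal peaks, linear axis) for each gene, with broadly expressed genes on the left; circles are replicate 1, squares replicate 3, bars the mean of 2, and crosses mark replicates with no region. In the upper panel alphaTub84B (1.99 and 1.86) and betaTub56D (1.34 and 1.25) lie above 1 in both replicates, while betaTub60D (0.437 and 0.406) is the sole tissue-restricted gene with a region at a TSS in both.

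Among the tissue-restricted genes, betaTub60D, a beta-tubulin of the developing mesoderm and some sense organs (FBgn0288686, chr2R:24305881-24313099, + strand), had the highest region at a TSS. The pooled height was 52.7, rank 6410, with 30.8 in replicate 1 and 19.1 in replicate 3. The relative heights were 0.437 and 0.406 (0.421 ± 0.0216, n = 2). This was above alphaTub84D in each replicate, though in the pooled list alphaTub84D, at 53.2, lay just above betaTub60D. In Act42A the replicates lay on either side of betaTub60D, so the lower broadly expressed genes and betaTub60D overlapped. Against betaTub56D, whose lower replicate was 1.25, betaTub60D was lower in both replicates.

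Act87E, a muscle actin gene (FBgn0000046, chr3R:13425983-13428375, + strand), had a low region near each of its 2 TSSs. The pooled heights were 27.6, with the summit 190 bp upstream of the first, and 27.3, with the summit 241 bp downstream of the second, in coding sequence. Replicate 3 held them at 19.4 and 17.7, and replicate 1 held no region within 250 bp of either summit. Both pooled heights were below the median of the pooled list, which was 29.0. Act57B (FBgn0000044, chr2R:20944021-20946431, + strand), Act79B (FBgn0000045, chr3L:21985210-21987190, + strand) and Act88F (FBgn0000047, chr3R:15439969-15442177, + strand) encode actins of larval and adult muscle, Act88F that of the flight muscle. None of these 3 had a region within 250 bp of a TSS in the pooled list or in either replicate's list.

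Counting pooled regions of any height, 7 of the 10 genes had one at a TSS, against 48.5% of all genes: 5 of 5 broadly expressed and 2 of 5 tissue-restricted. In replicate 1 alone 5 of 5 broadly expressed genes and 1 of 5 tissue-restricted genes had such a region, against 49% of all genes. In replicate 3 alone the counts were 5 of 5 and 2 of 5, against 43.2%. The control alignment was not analysed here and the read totals are unknown, so a gene with no region is one where none was listed, not one where NC2beta is absent. In the 3 genes with a bound TSS the summit lay downstream of it (6, 25 and 37 bp), and in Act42A, alphaTub84D and betaTub60D upstream (18, 50 and 32 bp).

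**Figure D2:**
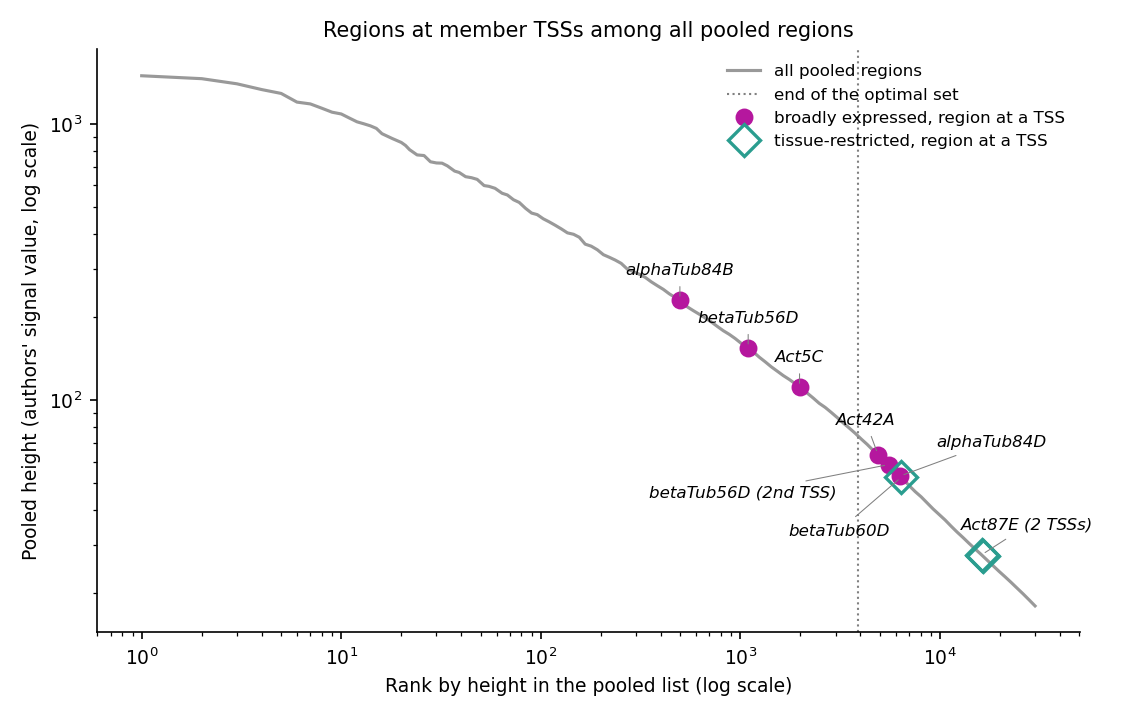
Pooled height (authors' signal value, log axis) against rank in the pooled list (log axis) for all regions (line), with those at a TSS of broadly expressed genes (filled circles) and of tissue-restricted genes (open diamonds). alphaTub84B (rank 498), betaTub56D (1095) and Act5C (1981) fall left of the dotted line at rank 3897, and Act42A, alphaTub84D, betaTub60D and Act87E to the right of it; alphaTub84D (53.2) and betaTub60D (52.7) nearly coincide.

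The view was then widened to the gene body and 2 kb on either side, where an optimal peak was found for 4 of the 10 genes, against 34.3% of all genes. These were 3 of 5 broadly expressed genes (the same 3 as at the TSS) and 1 of 5 tissue-restricted genes, Act87E. A pooled region of any height was found for 9 of the 10, against 75.9% of all genes, and likewise for 9 of the 10 in replicate 1 alone (75.2% of all genes) and in replicate 3 alone (81.9%). The exception was Act79B, which had no region in any of the pooled and replicate lists, as did 13.9% of all genes. Its nearest pooled region lay 12634 bp from its TSS. In all, 38 pooled regions fell in these windows, 7 of them optimal and 31 below. A region within 250 bp was present in both replicates for 18 of those 31 (58.1%), against 46.7% of all pooled regions below the optimal set.

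The highest region near any of the 10 genes was not at a TSS of theirs. It lay 687 bp upstream of the distal Act5C TSS, at chrX:5900019-5900325, with a pooled height of 294.0 (rank 283). It stood at 175.7 in replicate 1 and 122.2 in replicate 3. The relative heights were 2.49 and 2.59 (2.54 ± 0.0739, n = 2). Its summit was 185 bp upstream of the TSS of lncRNA:CR45668, a non-coding RNA gene that runs the other way, so it is nearer to that gene than to Act5C. The sequence of 100 bases on either side of the summit is shown because it holds the DNA replication-related element (DRE), in capitals, 84 bases before the summit. The DRE, with A or T, then ATCGAT, then A or T, was found in 9.80% of the 201-bp sequences at optimal peaks, on either strand.
Peak upstream of Act5C, chrX:5900074-5900274 (+ strand): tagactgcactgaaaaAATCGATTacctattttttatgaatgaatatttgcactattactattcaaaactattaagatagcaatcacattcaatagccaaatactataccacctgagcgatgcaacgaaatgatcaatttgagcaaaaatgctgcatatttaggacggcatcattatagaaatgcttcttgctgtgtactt

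A second optimal peak, at chrX:5900323-5900469 with a pooled height of 93.0, lay 484 bp upstream of Act5C. Replicate 1 listed a region of its own there, of 72.2, while the nearest region of replicate 3 was the taller neighbour just described (122.2). This optimal peak was thus listed separately in replicate 1 only, and no mean relative height is given for it. Further along Act5C a region in the 3′ UTR had a pooled height of 41.0, with 29.2 in replicate 1 and 20.2 in replicate 3, and the nearest protein-coding TSS was that of CG4020.

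The optimal peak of Act87E lay beyond the other end of the gene, at chr3R:13428351-13428750, with its summit 176 bp past the annotated end and between Act87E and the convergent gene yrt. The pooled height was 88.3, rank 2963, with 53.1 in replicate 1 and 35.6 in replicate 3. The relative heights of 0.753 and 0.755 (0.754 ± 0.00163, n = 2) differed less than those of any other region described here. Its summit sequence is shown with its match to Motif 6, at 1 mismatch, in capitals; 8.16% of optimal peaks held one.
Peak past the end of Act87E, chr3R:13428451-13428651 (+ strand): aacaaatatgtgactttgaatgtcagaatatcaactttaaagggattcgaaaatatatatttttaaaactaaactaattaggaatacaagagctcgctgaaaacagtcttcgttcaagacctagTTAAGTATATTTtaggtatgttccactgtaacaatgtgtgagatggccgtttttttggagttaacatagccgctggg

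Beside betaTub56D the second optimal peak, at chr2R:19452279-19452678 with a pooled height of 99.4, was 879 bp upstream of the gene but 25 bp upstream of CG7744, whose TSS is the nearest. It stood at 81.9 in replicate 1 and 23.9 in replicate 3, or 1.16 and 0.506 in relative terms (0.833 ± 0.463, n = 2). The replicates differed more there than at the TSS of betaTub56D. On the other side a region of 38.8 lay 22 bp downstream of the TSS of EloC. Near alphaTub84B the regions below the optimal set included one of 25.9 in an intron of Tailor and one of 42.2 whose nearest protein-coding TSS was that of e(y)2b. The highest of them, 51.8, lay 236 bp past the end of alphaTub84B, at 23.6 in replicate 1 and 18.4 in replicate 3. In the window of Act42A, replicate 3 held a region of 41.6, higher than its region at the Act42A TSS, whose nearest protein-coding gene was Pngl. The nearest optimal peak to the Act42A TSS lay 2030 bp away, just outside the window.

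Within the coding sequence of the genes themselves no region reached the optimal set. The pooled heights of these 10 regions ran from 21.2 in Act5C to 46.4 in betaTub56D, with 30.4 and 28.9 in alphaTub84B. These exons are also where fewer 50-base words are unique, and the part of that in the heights was not tested. Act57B had its highest region, of 29.0, in its coding sequence; replicate 1 held it at 23.1 and replicate 3 held none within 250 bp. betaTub60D had a region of 35.1 in an intron 636 bp downstream of its TSS, at 12.6 in replicate 1 and 19.8 in replicate 3. The one pooled region near Act88F had a height of 22.5 and lay 1786 bp upstream.

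**Figure D3:**
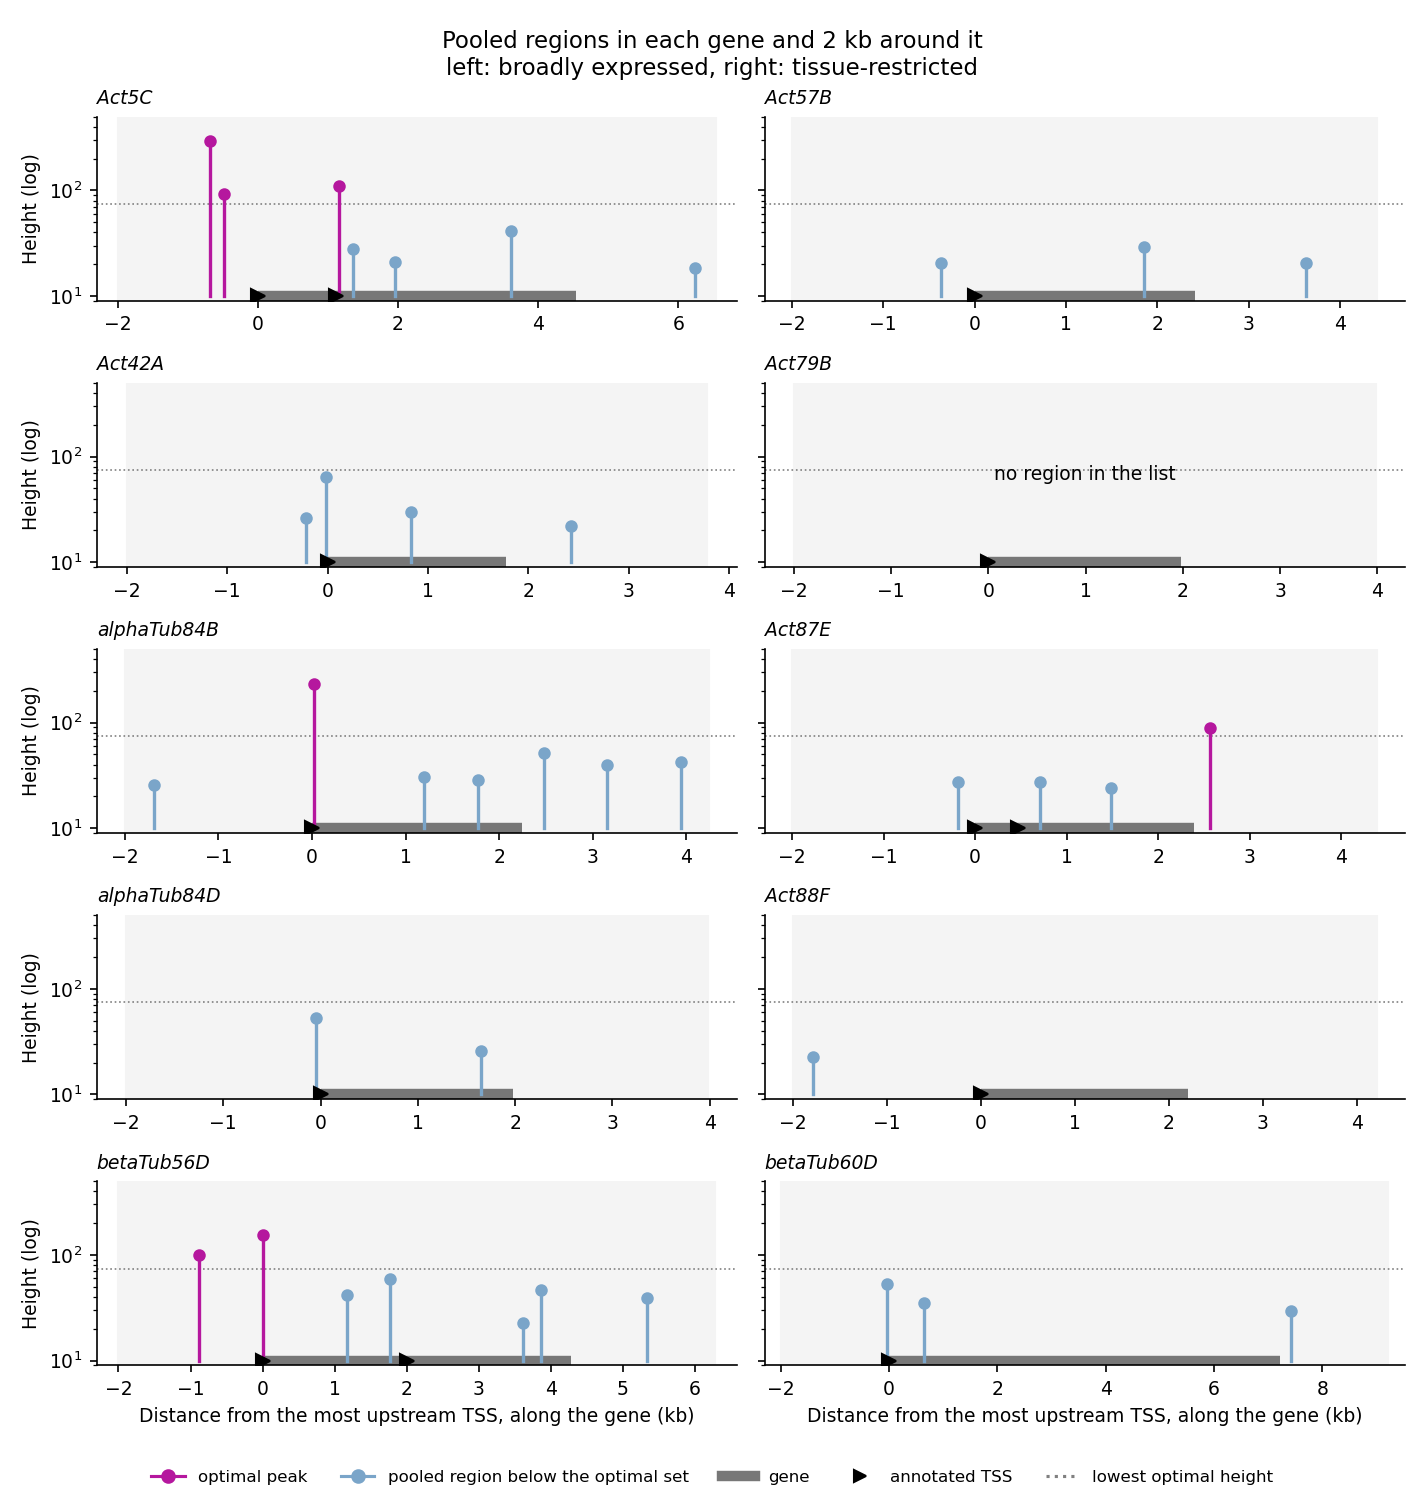
Pooled height (log axis) of every region by its distance in kb from the most upstream TSS, along the direction of the gene, for the broadly expressed genes (left) and the tissue-restricted genes (right); the grey area is the window searched. Act5C has optimal peaks upstream (294.0 and 93.0) and at its second TSS (111.3), betaTub56D at its first TSS (154.5) and upstream at CG7744 (99.4), alphaTub84B at its TSS (230.2) and Act87E past its end (88.3); Act79B has no region.

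Taking the highest pooled region of each gene, the 5 broadly expressed genes had a median relative height of 1.29 (1.34 in replicate 1 and 1.25 in replicate 3, SD 0.0621, n = 2). Of the 5 tissue-restricted genes 2, Act87E and betaTub60D, had that region in both replicates, and their median was 0.588 (0.595 in replicate 1 and 0.580 in replicate 3, SD 0.00997, n = 2). The ranges overlapped, from 0.313 in alphaTub84D to 2.54 in Act5C for the broadly expressed genes and from 0.421 to 0.754 for the tissue-restricted ones. The second median leaves out the 3 genes with the lowest or no regions, and it rests for Act87E on a peak that is not at its TSS. For Act5C, too, the highest region (2.54) is not at its TSS and lies nearer to lncRNA:CR45668. Restricted to regions at a TSS, the values were 0.928 for the broadly expressed genes and 0.421 for betaTub60D, the one tissue-restricted gene left.

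The promoter elements were then set beside these heights, with the TSS counted as 0. The TATA box, searched as TATA, then A or T, then AA, then A or G, starting 40 to 20 bases upstream with at most 1 mismatch, was found in 7 of the 10 genes: 3 of 5 broadly expressed and 4 of 5 tissue-restricted. Counted by TSS, it was at 7 of their 13 TSSs, against 13.1% of the 19253 TSSs of protein-coding genes and 6.63% of bound ones. All letters matched at 2 of the 13 TSSs, alphaTub84B at −27 and betaTub56D at −26, against 4.35% of all TSSs and 1.43% of bound TSSs. Those are the genes with the highest and the next highest region at a TSS. In the other 5 genes with a TATA box, 1 letter differed: Act5C at its distal TSS, Act57B, Act79B, Act87E and Act88F. The pooled list held no optimal peak at any of these 5 TSSs. The proximal TSS of Act5C, which was bound, had no TATA box.

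The initiator was searched as TCA, then G or T, then T, then C or T, with its A within 10 bases of the TSS. With at most 1 mismatch it was found in 8 of the 10 genes, 3 broadly expressed and 5 tissue-restricted. By TSS it was at 9 of 13, against 50.8% of all TSSs. All letters matched at 2 of the 13, the proximal TSS of Act5C and that of betaTub60D, against 14.8% of all TSSs. The DPE, read as A or G, then G, then A or T, then C or T, then A, C or G, from 28 counted from the initiator A, was found in 4 genes: 1 broadly expressed, Act5C at its proximal TSS, and 3 tissue-restricted, Act79B, Act87E and betaTub60D. With at most 1 mismatch in the DPE and 1 in its initiator, it was at 4 of the 13 TSSs, against 21.8% of all TSSs. All letters matched at 1 of the 13, that of betaTub60D, which had no TATA box, against 3.37% of all TSSs.

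Motif 1, which marks promoters of broadly expressed fly genes, was found in 3 broadly expressed genes and no tissue-restricted gene. By TSS it was at 3 of 13, against 8.75% of all TSSs and 18.1% of bound ones. In Act42A all its letters matched, at −19. In alphaTub84D it lay at −2 and in betaTub56D at −46, each with 1 mismatch. Act42A and alphaTub84D, the broadly expressed genes without a bound TSS, had Motif 1 and neither a TATA box nor an initiator. alphaTub84D also had Motif 6 at −28 with 1 mismatch, the 1 TSS of 13 that held it, against 7.54% of all TSSs. The DRE was at none of the 13 TSSs, against 11% of all, nor was the TCT initiator of ribosomal protein genes (pyrimidines around CTTT), against 0.675%.

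The GAGA element (GAGAG, either strand) was found in 5 genes, 3 broadly expressed and 2 tissue-restricted, and at 6 of the 13 TSSs, against 20.9% of all TSSs. It was at all 3 bound TSSs, those of alphaTub84B, betaTub56D and Act5C, and also at Act87E, Act88F and the distal TSS of Act5C. Among the TSSs of all protein-coding genes, GAGA was at 20.1% of bound and 21.1% of unbound ones. The E-box (CANNTG), the core of the sites of muscle factors such as Twist, was found in 1 broadly expressed gene and 5 tissue-restricted genes. By TSS it was at 6 of 13, against 56.9% of all TSSs and 56.2% in windows moved 200 bp downstream. The split by class was therefore read no further. In betaTub60D the E-box overlaps the initiator. A site for the muscle factor MEF2 was found in none of the broadly expressed genes and in 2 tissue-restricted genes, and at 3 of the 13 TSSs, against 13.5% of all TSSs. It lay at −202 in Act57B, at −158 from the first TSS of Act87E, and at −130 and −63 from the second. Among the TSSs of all protein-coding genes, the MEF2 site was at 16.7% of bound and 12.9% of unbound ones. Its split by class was also read no further. Motif 7, with 1 mismatch allowed, was in 5 genes and at 6 of the 13 TSSs. It was at 35.1% of all TSSs, against 26.6% in windows moved 200 bp downstream, and was read no further. A match of letters is a description and not a site in use.

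**Figure D4:**
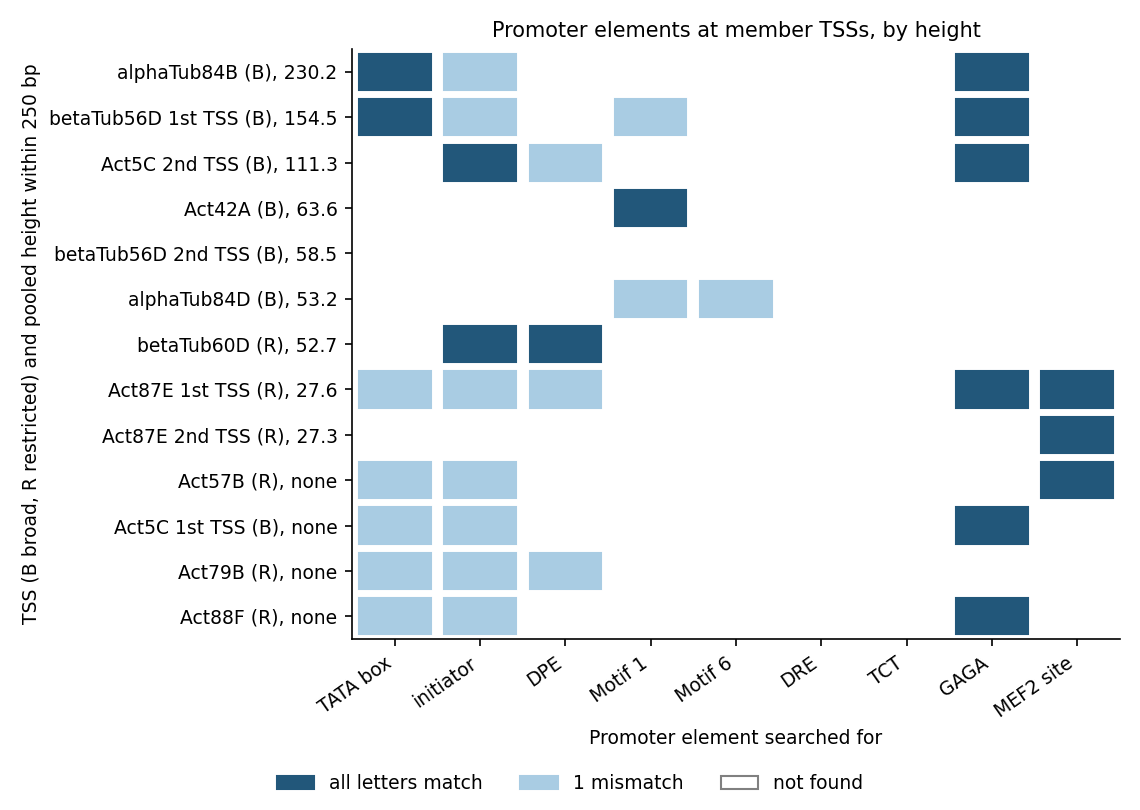
Promoter elements (columns) found at each of the 13 TSSs (rows, highest pooled height within 250 bp at the top; B broadly expressed, R tissue-restricted); dark squares match all letters and light squares have 1 mismatch. The dark TATA squares are those of alphaTub84B and betaTub56D, at heights 230.2 and 154.5, and the DRE and TCT columns are empty.

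Other genes related to actin, tubulin or their filaments were counted from lists chosen by family or function. The actin-related proteins were listed by family, whether or not they act on filaments. The list called actin assembly factors also held non-muscle myosin genes and genes that crosslink filaments. Of 8 other tubulin genes 1 had a bound TSS, against 17.6% of all protein-coding genes: gammaTub23C, the gamma-tubulin that nucleates microtubules, at 119.8, with the TSS of Rrp1 nearer to the summit. Of 9 actin-related protein genes 2 were bound, Arp3, a core subunit of the branching Arp2/3 complex, at 237.7, with the TSS of msk nearer, and Arp5 at 74.5. Of 33 actin assembly factors 11 were bound (33.3%), led by WASp, the activator of Arp2/3, at 259.9, the actin-binding cib at 136.5 and the coronin pod1 at 121.1. Of 20 microtubule factors and motors 5 were bound (25.0%), led by Mapmodulin at 140.7, Map205 at 109.6 and the CLASP gene chb at 92.6. With a single replicate some of these counts moved, beside 17.9% of all genes bound in replicate 1 and 16.4% in replicate 3. In each, 1 actin-related gene was bound. Bound microtubule factors and motors numbered 6 in replicate 1 and 8 in replicate 3. The other tubulins stayed at 1 in each, and the actin assembly factors stood at 10 in each. Among the actin assembly and microtubule factors, some bound genes lower than those named had another gene's TSS nearer to the summit.

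The CCT chaperonin folds actin and tubulin, and the tubulin cofactors act on tubulin. Of 12 such genes 4 were bound (33.3%), led by the cofactor Tbcd at 180.6, with CCT1 at 100.8 and CCT7 at 97.0. Of 23 sarcomere protein genes, the partners of the muscle actins, none was bound, against 17.6% of all protein-coding genes. The muscle actins had no bound TSS either, but they are too few to be set against that share. An optimal peak lay in the gene or within 2000 bp for 4 of the 23 sarcomere genes, against 34.3% of all genes. A pooled region of any height lay at a TSS of 12 of these 23 (52.2%), near the 48.5% of all genes. Each replicate alone gave 1 bound sarcomere gene, against 17.9% of all genes in replicate 1 and 16.4% in replicate 3. The count of 0 thus holds for the pooled replicates.

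**Figure D5:**
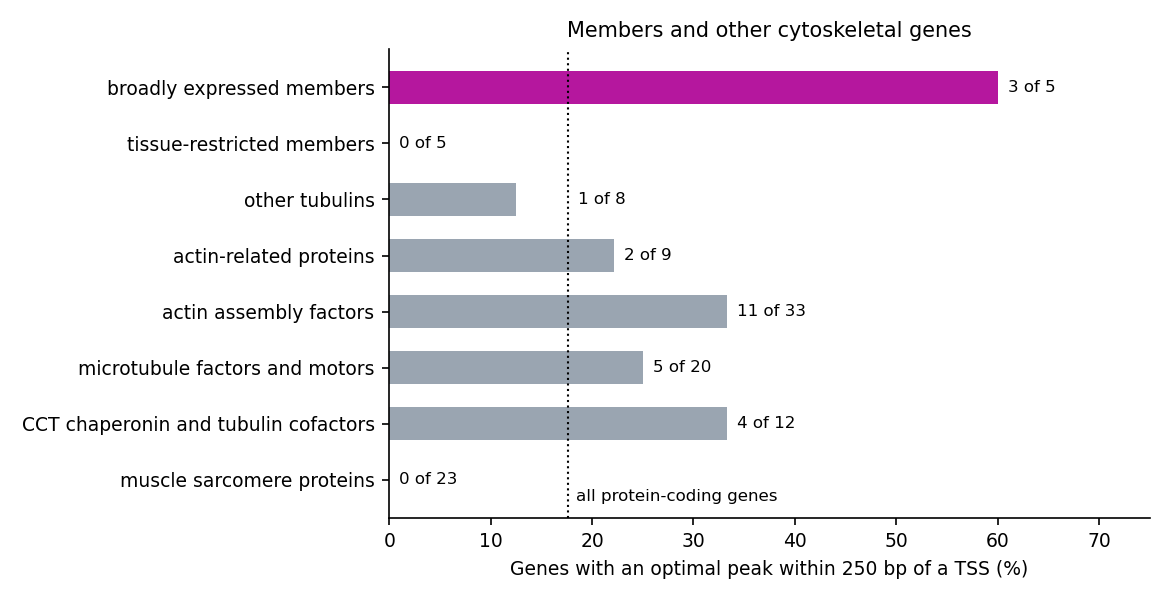
Share of genes (percent, linear axis from 0) with an optimal peak within 250 bp of a TSS, with the counts beside the bars and the share of all protein-coding genes (17.6%) as a dotted line. The broadly expressed actin and tubulin genes stand at 3 of 5, and the tissue-restricted ones (0 of 5) and the sarcomere genes (0 of 23) have no bar.

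By pooled height at a bound TSS, the 3 genes nearest to alphaTub84B (230.2) were CG14434 at 230.5 and Rnmt and THG at 231.5 each. Nearest to betaTub56D (154.5) were T48 at 154.5, CG5254 at 154.4 and CG17646 at 154.3, and nearest to Act5C (111.3) were elgi and TP53INP at 111.3 and Pgant3 at 111.2. This is a likeness of 1 value per gene in the pooled list.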

How the data were processed

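Anti-GFP ChIP-seq of NC2beta-eGFP embryos was analysed from the authors' deposited dm6 region lists, with 2 replicates in 1 group. For each region the deposited lists give a height, which is the authors' signal value, a −log10 q value and a summit. Each replicate has 30000 regions, as has the list of the pooled replicates, and the optimal set of 3897 peaks (chosen by the authors for reproducibility) equals the highest 3897 pooled regions. The software for alignment and for calling peaks was not given in the sources used here. A control alignment was not analysed here. The depth of each library is unknown, and no interval that needs it is printed. Lists in dm3 were not used.

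Genes and TSSs came from Ensembl release 115 and letters from the Release 6 genome (RefSeq). A gene was called bound when an optimal summit lay within 250 bp of any of its TSSs. Windows were the gene and 2000 bp on either side. For each pooled region, the highest region with its summit within 250 bp gave the replicate's height, divided by that replicate's median over the optimal peaks. Code in Python 3.11.15 with numpy 2.4.6, pandas 2.3.3 and Biopython 1.88 was tested on simulated data. No test between groups was possible. The genes and lists were chosen with earlier results of these data known. All 10 genes are named, with up to 3 bound genes of greatest height per other list, neighbours that own the nearest protein-coding TSS, and the 3 genes nearest in height to each bound one. Alternatives were other distances, flanks, mismatches and scales, and each replicate alone.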

Additional observations from a re-analysis of the deposited data

How the results depend on the processing

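Of 80 alternative values, 60 stayed within limits and 20 did not. A count stayed within them when within 1.5 times its main value, and a height when it moved by less than the SD of the replicates. With 2 replicates, the height in 1 of them always lies within their SD of the mean. Heights of single genes, and here the class medians, thus stayed within limits by construction when a replicate was left out. Those labels say nothing about how stable the heights are. Act42A at its TSS, at 0.471, was 0.238 without replicate 1 and 0.705 without replicate 3. With pooled regions of any height in place of optimal peaks, the genes with a region at a TSS were 7 in all, 5 broadly expressed and 2 tissue-restricted. The median relative height was 0.928 (broadly expressed) and 0.421 (tissue-restricted) over regions at a TSS, and 4.54 and 2.06 when divided by the median of the whole list, which changes the scale by construction. With the nearest replicate region in place of the highest, chosen after seeing the data, the tissue-restricted median was 0.602, a small shift that still passed the SD of 0.00997. With no mismatch allowed the TATA box was left in 2 genes, the initiator in 2 and the DPE in 1. In windows moved 200 bp downstream the TATA box was in 0 genes and the initiator in 4. The DPE was in 7 when sought over several other spacings from the initiator in place of 1, which raises the count by construction. With 36-base words 92.9% of coding exon words were unique, against 97.2% at 50.

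Leaving out each replicate in turn gave 3 to 4 genes with a bound TSS, 3 to 4 broadly expressed and 0 tissue-restricted. It gave 1 bound actin-related gene either way (2 with both), 6 to 8 microtubule factors (5 with both) and 1 sarcomere gene either way (0 with both): sls, at 135.3, with replicate 1 alone. Of all genes, 17.9% were bound with replicate 1 alone and 16.4% with replicate 3 alone, against 17.6% with both. Medians ran from 1.25 to 1.34 (broadly expressed) and from 0.580 to 0.595 (tissue-restricted). Act42A is the gene that depends on the replicate kept. No paired analysis was possible because there is 1 group.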
